A study of Danio rerio with 4 samples.

Results

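The genes described here code for the proteins of the extracellular matrix and for the enzymes that cross-link or cut it, in the gonads of adult zebrafish. They are the collagens, laminins, fibronectin, nidogens, perlecan (hspg2), fibulins, fibrillins and SPARC proteins, the lysyl oxidases, the matrix metalloproteinases, the adamts proteases and the tissue inhibitors of metalloproteinases. They were chosen by gene symbol alone, and 147 of the 32520 gene IDs in the count table matched, 57 of them collagens. These IDs carry 129 distinct symbols, since 17 symbols are shared by 35 IDs, so a gene whose symbol is shared is given here with its ID. Of the 147 genes, 135 had enough reads to be tested. The 2 loxhd1 genes match the symbol rule but code for a protein of the sensory hair cell and not for a matrix enzyme.

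The testis and ovary libraries, 2 of each, were made from whole gonads of AB strain zebrafish, with 1 fish per library. All 4 fish were adults given neither exemestane, the aromatase inhibitor under study, nor its solvent DMSO, and they are the null controls of that study. No allele or transgene is given in the labels. Whole organs were used, so every cell type of the gonad and its covering contributes, and fewer cells of a type cannot be told apart from less RNA per cell. Levels are CPM, counts per 1000000 of the library size scaled by edgeR's trimmed mean of M-values (TMM). They are compared within a gene only, because gene lengths were not used.

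The matrix outside cells is built in layers. Fibril-forming collagens make the cables of connective tissue, and fibril-associated collagens coat them. Type IV collagen and laminin form separate sheets that nidogens and perlecan tie into the basement membrane, on which Sertoli cells in the testis and follicle cells in the ovary rest. Lysyl oxidases cross-link collagen and elastin, metalloproteinases and adamts proteases cut matrix proteins, and tissue inhibitors block the metalloproteinases.

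The testis libraries held 11554811 and 12382674 counts, and the ovary libraries 26137839 and 18085251. Germ cell markers matched the labelled organs. All 6 male germ cell genes found, of 9 listed, were higher in testis (36.7% of all genes), and 9 of 9 oocyte genes were higher in ovary (28.5%). Somatic markers were mixed, with 6 of 8 Sertoli cell genes higher in testis and 1 in ovary. For Leydig cell genes it was 5 and 1 of 7, and for granulosa and theca cell genes 1 and 3 of 5 tested. The last list summed to 72.0 and 43.9 CPM in the testes, against 32.2 and 88.0 CPM in the ovaries. The testis replicate 1 stood apart from the other testis in skin genes. The keratin gene krt5 had 7544 and 7 counts in the testes, against 11 and 56 in the ovaries, and krt4 had 3855 and 465 counts in the testes, against 203 and 157 in the ovaries. Summed over the 6 skin markers found, the level was 859 and 48.6 CPM in the testes and 50.6 and 46.5 CPM in the ovaries, and no skin marker was at 0 in either testis. The same testis also had more of the smooth muscle markers, at 458 and 223 CPM in the testes against 37.0 and 135 CPM in the ovaries, and of the endothelial markers, at 199 and 104 CPM in the testes against 34.5 and 66.3 CPM in the ovaries. So it was for the fibroblast markers, at 108 and 41.9 CPM in the testes against 35.0 and 50.4 CPM in the ovaries. The leukocyte markers had 195 and 94.9 CPM in the testes, and the Leydig cell markers 1813 and 707 CPM. By summed level the Sertoli cell markers were lower in that testis, at 1180 and 1279 CPM. The sums of skeletal muscle, blood, and cartilage and bone markers were lower there too. Taken gene by gene, 6 of 8 Sertoli cell and 5 of 9 skeletal muscle markers were higher in testis replicate 1. For blood it was 2 of 6 tested, and for cartilage and bone 1 of 7 tested. The part of these differences in the results below was not tested. Counts without testis replicate 1 are therefore also given for all matrix genes together and for some of the classes and lists.

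Matrix genes were mostly male-biased. At an edgeR adjusted p under 0.05, 77 of the 135 tested genes were higher in testis (57.0%, against 36.7% of all 21815 genes tested) and 6 were higher in ovary (4.44%, against 28.5% of all genes). The other 52 did not pass. Their median log2 fold change was 2.04, against 0.45 over all genes. Both testes lay above both ovaries in 90 of the 135 genes (48.1% of all genes), both ovaries lay above both testes in 13 (36.6% of all genes), and the sexes overlapped in 32. A difference of at least 8-fold that also passed the test was seen in 38 genes towards testis (21.6% of all genes) and 3 towards ovary (5.83% of all genes). As a share of all counts, the 147 genes took 0.816% and 0.455% in the testes (95% exact binomial intervals 0.811 to 0.822 and 0.451 to 0.459), against 0.107% and 0.214% in the ovaries (0.105 to 0.108 and 0.212 to 0.216). The intervals cover counting error only, and the libraries of a sex lay further apart than that. Without testis replicate 1, 60 genes were higher in testis (31.7% of all genes) and 6 in ovary (23.7%), and the median log2 fold change was 1.55. Of the 83 genes that passed, 50 also passed in each of the 4 fits that left out a library, 47 of them higher in testis and 3 in ovary. Scaling by library size alone moved the median log2 fold change of all genes to 1.19 and that of the matrix genes to 2.74, a difference of 1.55 against 1.59. It gave 85 matrix genes higher in testis (47.7% of all genes) and 3 in ovary (17.6%), and the negative values of col4a2, lama5, lamc3, fbln5, hspg2, adamts7, mmp21 and mmp30, none of which passed, turned positive.

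**Figure D1:**
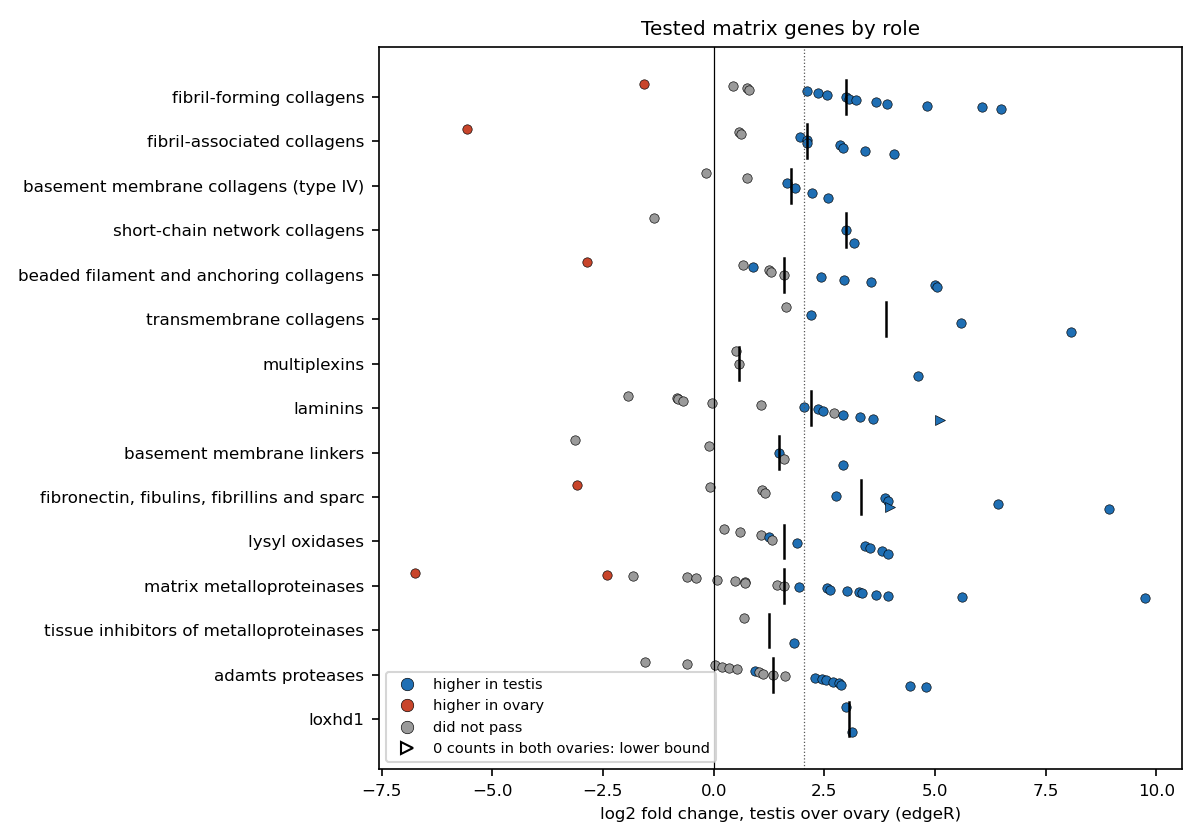
Each point is a tested matrix gene, placed by its log2 fold change of testis over ovary from edgeR on the horizontal axis and by its role on the vertical axis. Blue points were higher in testis and red points higher in ovary at an adjusted p under 0.05, grey points did not pass, vertical bars are role medians, the dotted line is the median of 2.04 over the 135 genes, and triangles are lower bounds for genes with 0 counts in both ovaries. Blue points outnumber red in every role, and the 6 red points fall among the fibrils, their associated and beaded relatives, fibronectin and the metalloproteinases.

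Fibril-forming collagens were higher in testis in 11 of 15 genes and higher in ovary in 1. That is 73.3% and 6.67%, against 36.7% and 28.5% of all genes, and the class had a median log2 fold change of 2.98. The most read was col1a1 (ENSDARG00000035809), an alpha chain of type I collagen, the main collagen of connective tissue. It had 549 and 305 CPM in the testes, against 21.5 and 46 CPM in the ovaries, so the lower testis was still well above the higher ovary (log2 fold change 3.66 ± 0.50 SE, edgeR adjusted p = 0.00153). Its partner copy col1a1a had 327 and 77.5 CPM in the testes, against 37.3 and 56.2 CPM in the ovaries (2.11 ± 0.65, edgeR adjusted p = 0.0282). The other chain of that molecule, col1a2, had 270.3 and 42.2 CPM in the testes, against 17.5 and 35.8 CPM in the ovaries (2.55 ± 0.84, edgeR adjusted p = 0.0359). In both of the last genes testis replicate 2 was close to the higher ovary, and the gap came mostly from testis replicate 1. Without that library col1a1a stood at a log2 fold change of 0.72 (edgeR adjusted p = 0.108) and col1a2 at 0.66 (0.270), while 7 fibril-forming collagens of 15 were higher in testis and 0 in ovary. Without ovary replicate 1 or ovary replicate 2, col1a1a had an edgeR adjusted p of 0.161 and 0.092, and col1a2 of 0.187 and 0.089.

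The widest gaps of this class were in less read genes. The gene col5a3b, a chain of the type V collagen that nucleates fibrils, had 36.4 and 56.5 CPM in the testes, against 0.476 and 0.538 CPM in the ovaries (log2 fold change 6.5 ± 0.42 SE, edgeR adjusted p = 0.000179). For col11a1, a chain of the type XI collagen found within cartilage fibrils, the testes had 32.5 and 27.5 CPM and the ovaries 0.476 and 0.403 CPM (6.06 ± 0.43, edgeR adjusted p = 0.000219). The cartilage fibril collagen col2a1 (ENSDARG00000069093) had 53.5 and 34.0 CPM in the testes, against 2.12 and 0.941 CPM in the ovaries (4.82 ± 0.51, edgeR adjusted p = 0.000672). These 3 genes were at like levels in both testes and low in both ovaries. Of the other collagens known from cartilage, col11a2, col9a2 and col9a3 were also higher in testis, at log2 fold changes of 2.98, 4.07 and 3.41, though col9a2 did not pass without ovary replicate 2 (3.15, edgeR adjusted p = 0.063). Others did not pass, namely col9a1 (0.62, edgeR adjusted p = 0.459), col2a1 (ENSDARG00000011407, 0.80, 0.376), col11a1b (0.75, 0.264) and col27a1b (0.43, 0.427). That group was put together after the values were seen. Of the markers listed for cartilage and bone cells, 3 of 7 tested were higher in testis and 2 in ovary. That is 42.9% and 28.6%, against 36.7% and 28.5% of all genes. The summed level was 45.4 and 61.2 CPM in the testes and 870.2 and 644 CPM in the ovaries, where phex alone had 16073 and 9036 counts. The aggrecan gene acana had 57 and 99 counts in the testes and 9 and 17 in the ovaries, and the bone marker bglap had 1 and 0 counts in the testes and 0 and 0 in the ovaries.

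The fibril-forming collagen higher in ovary was col5a3a, the sister gene of col5a3b. It had 5.58 and 6.71 CPM in the testes, against 14.2 and 22.2 CPM in the ovaries, with no overlap (log2 fold change -1.57 ± 0.41 SE, edgeR adjusted p = 0.0164). It did not pass under scaling by library size alone (-0.84, edgeR adjusted p = 0.146), without testis replicate 1 (-1.45, 0.073) or without ovary replicate 2 (-1.30, 0.065).

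Fibril-associated collagens, which sit on the surface of fibrils, were higher in testis in 7 of 10 tested genes and higher in ovary in 1. That is 70% and 10%, against 36.7% and 28.5% of all genes, and the class had a median log2 fold change of 2.11. The most read was col12a1 (ENSDARG00000078322), at 136 and 128 CPM in the testes, against 26.7 and 34.2 CPM in the ovaries (2.12 ± 0.23 SE, edgeR adjusted p = 0.000737). The other gene of that symbol (ENSDARG00000019601) had 35.2 and 31.8 CPM in the testes, against 7.41 and 8.13 CPM in the ovaries (2.11 ± 0.29, edgeR adjusted p = 0.00165). Both genes were tight within each sex. For col14a1b, the testes had 10.2 and 10.6 CPM and the ovaries 1.91 and 0.807 CPM (2.91 ± 0.62, edgeR adjusted p = 0.00755), while its relative col14a1 had 19.8 and 22.4 CPM in the testes and 11.6 and 16.7 CPM in the ovaries and did not pass (0.57 ± 0.33, edgeR adjusted p = 0.171). The gene col16a1 had 23.4 and 34.0 CPM in the testes, against 4.45 and 3.43 CPM in the ovaries (2.86 ± 0.38, edgeR adjusted p = 0.00147). The exception was col19a1 (ENSDARG00000096073), a collagen that in mice lies in basement membrane zones of muscle and nerve. Its level was 0.197 and 0.958 CPM in the testes, against 24.5 and 31.3 CPM in the ovaries, the widest gap towards ovary of any collagen tested (-5.57 ± 0.70, edgeR adjusted p = 0.00122). It passed in each of the 4 fits that left out a library.

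In the basement membrane, type IV collagen split by chain. The genes col4a5 and col4a6, whose products assemble together in mammalian basement membranes, were both higher in testis. The level of col4a6 was 53.4 and 75.3 CPM in the testes, against 7.04 and 14.5 CPM in the ovaries (log2 fold change 2.58 ± 0.41 SE, edgeR adjusted p = 0.00282), and that of col4a5 was 62.0 and 75.0 CPM in the testes, against 9.16 and 20.4 CPM in the ovaries (2.21 ± 0.41, edgeR adjusted p = 0.00474). Both passed without each library in turn. The chains col4a3 and col4a4 were higher in testis by 1.65 and 1.83 on the log2 scale, but col4a3 did not pass without testis replicate 1 or ovary replicate 2 (edgeR adjusted p = 0.136 and 0.096) and col4a4 passed only without ovary replicate 2 (otherwise 0.069 to 0.080). By contrast the chains of the most widespread type IV collagen overlapped between the sexes. The gene col4a1 had 69.0 and 16.5 CPM in the testes and 11.2 and 39.8 CPM in the ovaries (0.75 ± 0.79, edgeR adjusted p = 0.430), and col4a2 had 36.2 and 10.7 CPM in the testes and 14.2 and 38.4 CPM in the ovaries (-0.17 ± 0.67, edgeR adjusted p = 0.837). In both genes testis replicate 1 and ovary replicate 2 were the higher libraries of their sex. The difference between the chain groups was itself not tested.

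Laminins, cross-shaped trimers of an alpha, a beta and a gamma chain, were higher in testis in 7 of 14 genes and higher in ovary in 0. That is 50% and 0%, against 36.7% and 28.5% of all genes, and the class had a median log2 fold change of 2.19. Without testis replicate 1 the counts were 6 and 1, and the median 0.97. All 7 were alpha or beta chains. The beta chain lamb3 had 111 and 80 counts in the testes (7.28 and 5.11 CPM) and 0 counts in both ovaries, at least 34.4-fold higher in testis when 3 counts are allowed in each ovary (edgeR adjusted p = 0.00230). Its partner in the laminin of skin epithelium, lama3, had 3.67 and 2.81 CPM in the testes, against 0.424 and 0.202 CPM in the ovaries (3.31 ± 0.72 SE, edgeR adjusted p = 0.00845), and did not pass without ovary replicate 2 (2.84, 0.052). The beta chain lamb2 had 24.5 and 29.4 CPM in the testes, against 1.59 and 2.89 CPM in the ovaries (3.59 ± 0.45, edgeR adjusted p = 0.00113). For lama1, an alpha chain of early embryonic basement membranes, the testes had 125 and 119 CPM and the ovaries 16 and 43.4 CPM (2.04 ± 0.46, edgeR adjusted p = 0.00945). The gene lama4, a chain of vessel walls, had 70.9 and 37.2 CPM in the testes, against 6.35 and 14.9 CPM in the ovaries (2.35 ± 0.51, edgeR adjusted p = 0.00825).

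The gamma chains lamc1 and lamc3 were a contrast. The most read laminin, lamc1, the gamma chain of most laminin trimers, had 146 and 77.6 CPM in the testes and 212 and 187 CPM in the ovaries, and both ovaries lay above both testes without passing the test (log2 fold change -0.84 ± 0.33 SE, edgeR adjusted p = 0.0658). It did pass towards ovary without testis replicate 1 (-1.37, edgeR adjusted p = 0.00856), and stood at -0.08 by library size alone. Its relative lamc3 had 7.48 and 6.58 CPM in the testes and 13 and 9.68 CPM in the ovaries (-0.69 ± 0.42, edgeR adjusted p = 0.188, or 0.07 by library size alone). The widespread alpha chain lama5 had 67.4 and 39.9 CPM in the testes and 26.7 and 84.2 CPM in the ovaries (-0.05 ± 0.54, edgeR adjusted p = 0.944). The gene lamb2l had 146 and 211 counts in the testes and 81 and 1240 in the ovaries (-1.92 ± 1.13, edgeR adjusted p = 0.175). A single ovary, replicate 2, was thus far above the other libraries. Leaving out ovary replicate 1 put lamb2l at -2.85 on the log2 scale, while leaving out ovary replicate 2 turned its sign to 1.33.

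Of the 5 linkers between the sheets, 2 were higher in testis and 0 in ovary (40% and 0%, against 36.7% and 28.5% of all genes). The nidogen nid1 (ENSDARG00000068710) had 95.4 and 92.6 CPM in the testes, against 8.15 and 16.6 CPM in the ovaries (log2 fold change 2.93 ± 0.38 SE, edgeR adjusted p = 0.00129). The other nid1 gene (ENSDARG00000103129) had 65.0 and 33.7 CPM in the testes and 6.72 and 26.2 CPM in the ovaries and did not pass (1.58 ± 0.65, edgeR adjusted p = 0.0724), except without ovary replicate 2 (2.80, 0.0158). For nid2, the testes had 25.6 and 24.8 CPM and the ovaries 5.24 and 12.9 CPM (1.48 ± 0.47, edgeR adjusted p = 0.0334), and this call was lost when any library but ovary replicate 2 was left out (0.071 to 0.090). Its relative nid2b had 11 and 8 counts in the testes and 19 and 148 in the ovaries (-3.13 ± 1.16, edgeR adjusted p = 0.0534). Leaving out ovary replicate 1 put nid2b at -3.98 on the log2 scale, while leaving out ovary replicate 2 put it at only -0.78. Perlecan, hspg2, the large heparan sulfate proteoglycan of basement membranes, overlapped, with 130 and 85.0 CPM in the testes and 92.1 and 140 CPM in the ovaries (-0.11 ± 0.31, edgeR adjusted p = 0.780), and its sign turned to 0.63 under scaling by library size alone.

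The beaded filament and anchoring collagens (types VI, VII and XXVIII) were higher in testis in 6 of 11 tested genes and higher in ovary in 1. That is 54.5% and 9.09%, against 36.7% and 28.5% of all genes. The chains of type VI collagen, which in mammals share a trimer, were col6a1, col6a2 and col6a3. The most read was col6a3, at 201 and 50.7 CPM in the testes, against 16.4 and 30.2 CPM in the ovaries (log2 fold change 2.44 ± 0.66 SE, edgeR adjusted p = 0.0185), but it did not pass without testis replicate 1 (0.065), ovary replicate 1 (0.123) or ovary replicate 2 (0.059). Neither col6a1 (1.30 ± 0.74, edgeR adjusted p = 0.166) nor col6a2 (1.59 ± 0.74, edgeR adjusted p = 0.10) passed, except without testis replicate 2 (0.0494 and 0.0169). More even within the testes was col6a4b, at 43.5 and 46.4 CPM, against 6.56 and 5.11 CPM in the ovaries (2.94 ± 0.29, edgeR adjusted p = 0.000542). The anchoring fibril collagen col7a1, which in mammals fastens epithelium to the tissue beneath, had 40.4 and 63.4 CPM in the testes, against 3.44 and 5.44 CPM in the ovaries (3.55 ± 0.39, edgeR adjusted p = 0.000750).

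Type XXVIII collagens varied widely among fish. The gene col28a1a had 44.4 and 152 CPM in the testes, against 5.72 and 0.134 CPM in the ovaries (log2 fold change 5.05 ± 1.40 SE, edgeR adjusted p = 0.0198). Its relative col28a2a had 323 and 66 counts in the testes and 14 and 0 in the ovaries (4.99 ± 1.32, edgeR adjusted p = 0.0170), and did not pass without ovary replicate 2 (4.03, 0.054). The copy col28a2b was reversed, at 5.84 and 6.07 CPM in the testes, against 18.5 and 68.7 CPM in the ovaries (-2.87 ± 0.62, edgeR adjusted p = 0.00812), and it passed without each library in turn.

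Transmembrane collagens were higher in testis in 3 of 4 genes (75%, against 36.7% of all genes). Both genes of type XVII collagen, which in mammals anchors basal epithelial cells at hemidesmosomes, were among them. The level of col17a1a was 19.2 and 16.7 CPM in the testes, and the ovaries had 1 count each, a ratio of summed scaled counts of 303 with a 95% counting interval of 83.4 to 2506 (edgeR adjusted p = 0.000142). The level of col17a1b was 24.8 and 12.8 CPM in the testes, against 0.424 and 0.336 CPM in the ovaries (log2 fold change 5.59 ± 0.62 SE, edgeR adjusted p = 0.000756). The integrin itgb4, a partner in mammalian hemidesmosomes, had 1415 and 403 counts in the testes and 81 and 132 in the ovaries, and was thus higher in the testis with more krt5. Of the short-chain collagens, col8a1 had 7.02 and 7.54 CPM in the testes, against 0.106 and 1.55 CPM in the ovaries (3.18 ± 1.03, edgeR adjusted p = 0.0341), and col8a2 had 10.4 and 6.32 CPM in the testes, against 0.635 and 1.48 CPM in the ovaries (3.00 ± 0.69, edgeR adjusted p = 0.0101). The copy col8a1a had 6 and 23 counts in the testes and 41 and 39 in the ovaries (-1.35 ± 0.77, edgeR adjusted p = 0.164). Of the multiplexins, which carry an endostatin domain, col15a1b had 8.92 and 3.45 CPM in the testes, against 0.106 and 0.403 CPM in the ovaries (4.62 ± 0.94, edgeR adjusted p = 0.00652). The most read of that class, col18a1a, overlapped, with 110.4 and 43.1 CPM in the testes and 33.2 and 74.5 CPM in the ovaries (0.51 ± 0.54, edgeR adjusted p = 0.429).

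The fibrillins and fibulins, which build microfibrils and elastic fibres, gave some of the widest gaps. The gene fbn2 had 153 and 241 CPM in the testes, against 3.39 and 1.14 CPM in the ovaries (log2 fold change 6.43 ± 0.61 SE, edgeR adjusted p = 0.000462). The fibrillin fbn3 had 61.7 and 65.2 CPM in the testes, against 2.54 and 5.71 CPM in the ovaries (3.95 ± 0.44, edgeR adjusted p = 0.000765). The fibulin fbln1 had 405 and 626 counts in the testes and 0 and 2 in the ovaries, a ratio of 563 with a 95% counting interval of 156 to 4658 (edgeR adjusted p = 0.000374). For fbln7, with 61 and 26 counts in the testes and 0 in both ovaries, testis was at least 15.7-fold higher (edgeR adjusted p = 0.00563). In contrast fbln2 (1.09 ± 0.54, edgeR adjusted p = 0.118) and fbln5 (-0.08 ± 0.47, edgeR adjusted p = 0.886) overlapped between the sexes, though fbln2 passed without testis replicate 2 (1.68, 0.00853). The collagen-binding protein sparc had 95.7 and 23.1 CPM in the testes, against 3.92 and 13.6 CPM in the ovaries (2.77 ± 0.83, edgeR adjusted p = 0.0261), and did not pass without testis replicate 1 (1.40, 0.150) or ovary replicate 1 (2.16, 0.124).

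Fibronectin, the adhesive glycoprotein that integrins bind, had the most reads of the matrix genes in its 2 genes, which differed from each other. The gene fn1 (ENSDARG00000006526) had 993 and 185 CPM in the testes and 118 and 409 CPM in the ovaries, with overlap (log2 fold change 1.16 ± 0.87 SE, edgeR adjusted p = 0.274), and its sign turned to -0.52 without testis replicate 1. The gene fn1 (ENSDARG00000019815) had 67.3 and 6.07 CPM in the testes, against 288 and 335 CPM in the ovaries (-3.09 ± 0.98, edgeR adjusted p = 0.0322). The ovaries were close together, the testes were far apart, and both testes lay below both ovaries. Its call was lost without ovary replicate 1 (-3.15, edgeR adjusted p = 0.10), without ovary replicate 2 (-3.03, 0.095) and under scaling by library size alone (-2.33, 0.088), while it passed without testis replicate 1 (-5.69, 0.000256) and without testis replicate 2 (-2.23, 0.00295).

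Lysyl oxidases were higher in testis in 6 of 10 genes and higher in ovary in 0. That is 60% and 0%, against 36.7% and 28.5% of all genes, and the class had a median log2 fold change of 1.60. The most read, loxl3 (ENSDARG00000039563), had 53.9 and 61.6 CPM in the testes, against 6.19 and 4.5 CPM in the ovaries (3.43 ± 0.30 SE, edgeR adjusted p = 0.000366). The other loxl3 gene (ENSDARG00000076306) had 9.71 and 5.94 CPM in the testes, against 0.847 and 0.470 CPM in the ovaries (3.54 ± 0.67, edgeR adjusted p = 0.00523). For loxl1, which in mice is needed for elastic fibres, the testes had 27.2 and 10.3 CPM and the ovaries 1.01 and 1.68 CPM (3.81 ± 0.66, edgeR adjusted p = 0.00368). These genes passed without each library in turn. Each of the others higher in testis, loxl2, loxl4 (ENSDARG00000105442) and loxl5a, lost its call when some library was left out. The founding member lox was scarce in every library, at 15 and 9 counts in the testes and 4 and 8 in the ovaries (1.08 ± 0.72, edgeR adjusted p = 0.229).

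Among matrix metalloproteinases, 10 of 21 tested genes were higher in testis and 2 in ovary. That is 47.6% and 9.52%, against 36.7% and 28.5% of all genes, and the class had a median log2 fold change of 1.60. The gene mmp19, a secreted protease that in mammals cuts basement membrane proteins, had 444 and 546 counts in the testes (29.1 and 34.9 CPM) and 1 and 0 in the ovaries. That is a ratio of 1082, with a 95% counting interval of 194 to 42780 (edgeR adjusted p = 0.000141). The gene mmp28, known in humans as a protease of keratinocytes and testis, had 20.1 and 15.1 CPM in the testes, against 0.371 and 0.336 CPM in the ovaries (log2 fold change 5.6 ± 0.54 SE, edgeR adjusted p = 0.000495). Membrane-anchored members that passed towards testis included mmp24 (3.93 ± 0.69, edgeR adjusted p = 0.00402), mmp17b (3.28 ± 0.86, edgeR adjusted p = 0.0161), both mmp15 genes (3.02 and 2.56) and mmp14 (ENSDARG00000002235, 1.94 ± 0.50, edgeR adjusted p = 0.0157). Without a single library, calls were lost for mmp17b (0.085 without ovary replicate 2), for mmp15 (ENSDARG00000051962, 0.050 without testis replicate 2) and for mmp14 (0.103 without testis replicate 1 and 0.080 without ovary replicate 1). Other membrane-anchored members did not pass, with mmp14 (ENSDARG00000008388) at 0.71, mmp16 at 0.70, mmp25a at 0.47 and mmp17 at -1.82 on the log2 scale, the last with 0.919 and 0.383 CPM in the testes and 2.28 and 2.35 CPM in the ovaries (edgeR adjusted p = 0.0573). The gelatinases, which cut denatured collagen and type IV collagen, did not pass with all 4 libraries. The most read metalloproteinase, mmp2, had 105 and 47.4 CPM in the testes and 9.95 and 40.6 CPM in the ovaries (1.60 ± 0.68, edgeR adjusted p = 0.0814), but passed without testis replicate 2 (0.0445) or ovary replicate 2 (0.020). The level of mmp9 was 27.3 and 28.4 CPM in the testes and 20.8 and 31.8 CPM in the ovaries (0.09 ± 0.30, edgeR adjusted p = 0.815), with the testes inside the range of the ovaries.

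The 2 metalloproteinases higher in ovary were mmp11b and mmp13a. The gene mmp11b, a relative of stromelysin-3, had 3.74 and 0.894 CPM in the testes, against 6.51 and 18.3 CPM in the ovaries (log2 fold change -2.41 ± 0.85 SE, edgeR adjusted p = 0.0442), and it passed only with all 4 libraries or without testis replicate 1 (0.132 without testis replicate 2, 0.054 without ovary replicate 1, 0.217 without ovary replicate 2 and 0.148 by library size alone). The collagenase gene mmp13a had 1 and 0 counts in the testes, against 59 and 81 in the ovaries, an ovary over testis ratio of 128 with a 95% counting interval of 22.6 to 5095 (edgeR adjusted p = 0.00161). Its mean level of 4.28 CPM in the ovaries was under the minimum set for naming a gene, and it was named after its values were seen. The copy mmp13b was on the other side, at 3.67 and 14.4 CPM in the testes, against 0.741 and 2.22 CPM in the ovaries (2.62 ± 0.90, edgeR adjusted p = 0.0410), and kept its call only without testis replicate 1.

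**Figure D2:**
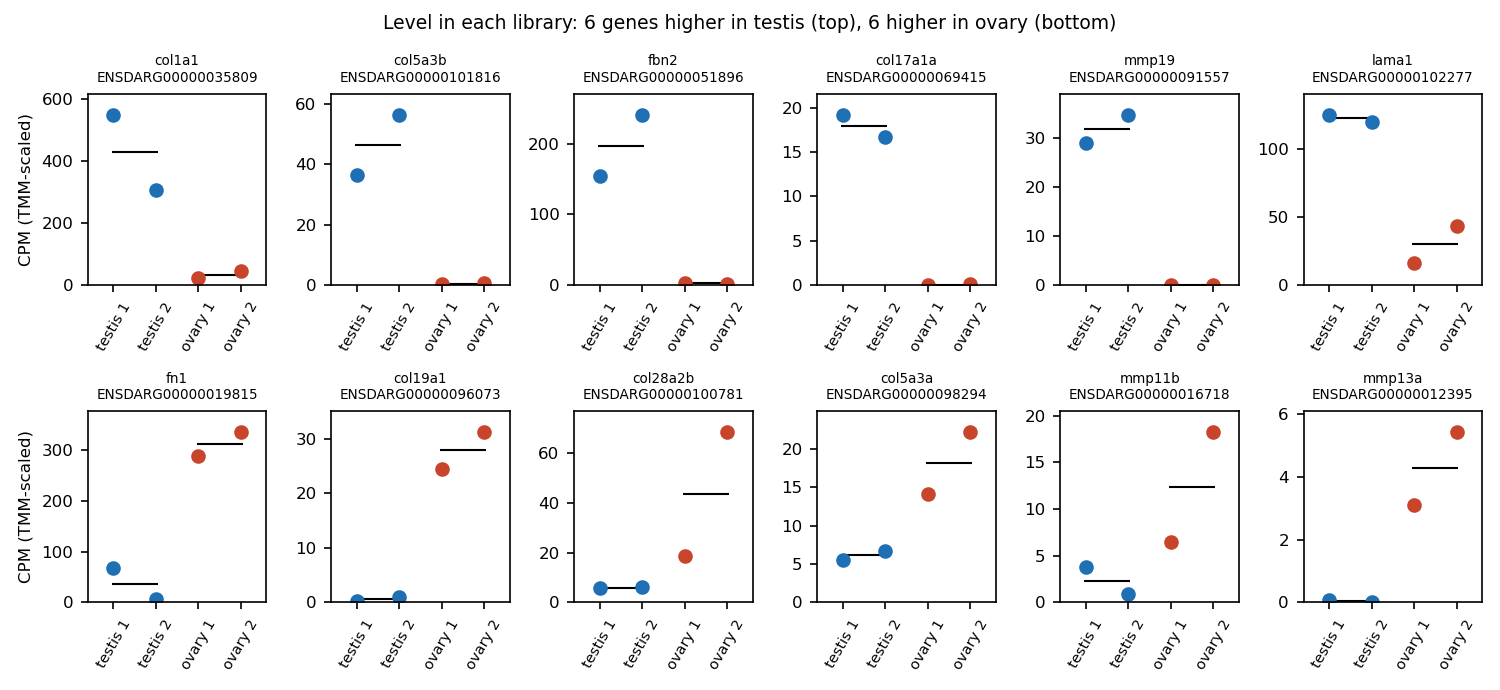
CPM (TMM-scaled, linear axes that start at 0) of 12 genes in each library, with testes in blue and ovaries in red, a point per library and a bar at the mean of the libraries of a sex. The upper genes were higher in testis, such as mmp19 at 29.1 and 34.9 CPM in the testes against 0.0529 and 0 CPM in the ovaries, and the lower 6 are every matrix gene that passed towards ovary, with no overlap between the sexes in any panel.

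Of the tissue inhibitors, 2 of 5 were tested. The most read was timp2 (ENSDARG00000061226), at 83.5 and 45.6 CPM in the testes and 16.7 and 64.1 CPM in the ovaries (log2 fold change 0.68 ± 0.62 SE, edgeR adjusted p = 0.365), and passed only without ovary replicate 2 (1.88, 0.0323). The other timp2 gene (ENSDARG00000075261) had 6.23 and 4.47 CPM in the testes, against 1.48 and 1.55 CPM in the ovaries (1.82 ± 0.58, edgeR adjusted p = 0.0333), and its call was lost when any of the 4 libraries was left out (0.061 to 0.128).

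The adamts proteases were higher in testis in 9 of 19 genes and in ovary in 0. That is 47.4% and 0%, against 36.7% and 28.5% of all genes, and the class had a median log2 fold change of 1.35. The procollagen-cutting adamts2a had 65.4 and 34.5 CPM in the testes, against 5.61 and 11.6 CPM in the ovaries (2.54 ± 0.48 SE, edgeR adjusted p = 0.00516). For adamts5, which in mammals cuts the cartilage proteoglycan aggrecan, the testes had 22.8 and 18.8 CPM and the ovaries 2.96 and 2.89 CPM (2.83 ± 0.39, edgeR adjusted p = 0.00166). The gene adamts17 had 31.7 and 37.9 CPM in the testes, against 7.36 and 5.31 CPM in the ovaries (2.45 ± 0.33, edgeR adjusted p = 0.00150). The protease of von Willebrand factor, adamts13, had 43 and 67 counts in the testes and 1 and 3 in the ovaries, a ratio of 30.1 with a 95% counting interval of 11.4 to 112 (edgeR adjusted p = 0.00392). Both adamts8 genes were on the testis side, ENSDARG00000058252 at 8.40 and 2.04 CPM in the testes against 0.318 and 0.134 CPM in the ovaries (4.44 ± 1.02, edgeR adjusted p = 0.0101) and ENSDARG00000007709 at 10.2 and 13.5 CPM in the testes against 1.59 and 1.61 CPM in the ovaries (2.89 ± 0.51, edgeR adjusted p = 0.00392). The ENSDARG00000058252 call was lost without ovary replicate 2 (0.061). The most read, adamts12, had the smallest gap that passed, at 37.9 and 52.1 CPM in the testes against 19 and 28.4 CPM in the ovaries (0.93 ± 0.31, edgeR adjusted p = 0.0378), and did not pass without testis replicate 2 (0.187) or ovary replicate 1 (0.133). The gene adamts1, needed for normal ovulation in mice, overlapped, with 96 and 358 counts in the testes and 221 and 251 in the ovaries (0.03 ± 0.62, edgeR adjusted p = 0.967).

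Many matrix genes have a sister gene of the same or nearly the same symbol in zebrafish, whose genome was duplicated in the teleost ancestor. Among the 147 genes, 39 names had more than 1 gene, which gave 33 pairs with both genes tested. Both were higher in testis in 9 pairs, among them the loxhd1 genes, which do not code for a matrix enzyme, and both higher in ovary in 0. They passed in opposite directions in 4 pairs (col5a3, col19a1, col28a2 and mmp13), only 1 gene of the pair passed in 17, and neither passed in 3. Taken singly, 57% of the tested matrix genes were higher in testis and 4.44% in ovary. Pairs were not tallied over all genes, so these pair counts are a description only. Pairs were matched by name, not by sequence, and reads from near-identical copies may be split or left out by the authors' counting, so the values of such copies are uncertain.

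Within a pair, the share of each copy needs no scaling between libraries. The copy col5a3a made up 13.3% and 10.6% of the pair's counts in the testes (95% exact binomial intervals 10.7 to 16.2 and 8.76 to 12.7), against 96.8% and 97.6% in the ovaries (93.9 to 98.5 and 95.4 to 99.0), so col5a3b led in the testes and col5a3a in the ovaries. The gene col19a1 (ENSDARG00000076163) made up 97.6% and 93.2% of its pair in the testes, against 5.32% and 11.8% in the ovaries. It was itself higher in testis at 8.14 and 13.1 CPM in the testes against 1.38 and 4.17 CPM in the ovaries (log2 fold change 1.95 ± 0.68 SE, edgeR adjusted p = 0.0431), but of the fits that left out a library it passed only without ovary replicate 2 (0.055 to 0.167 in the other 3). The fibronectin gene ENSDARG00000006526 made up 93.7% and 96.8% of both fn1 genes in the testes, against 29.0% and 54.9% in the ovaries. For mmp13a the share was 1.75% and 0% in the testes, with a 95% exact interval of up to 1.63% for the testis at 0, against 80.8% and 71.1% in the ovaries. The pair col12a1 did not differ in this way, since ENSDARG00000019601 made up 20.6% and 19.9% in the testes and 21.7% and 19.2% in the ovaries. With 2 libraries per sex an exact permutation test of a share cannot give a p under 0.333, so the shares are given without a test.

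**Figure D3:**
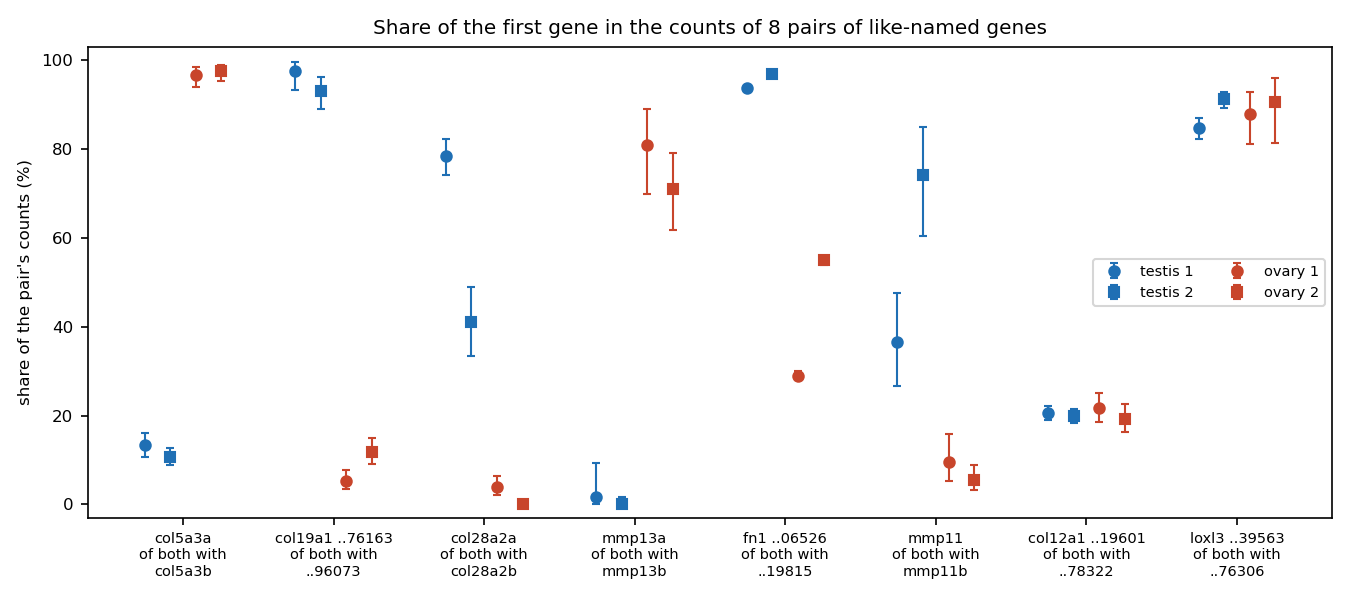
Share in percent of the gene named at the top of each label in the summed counts of that gene and its like-named partner, for 8 pairs, with testes in blue, ovaries in red, circles for replicate 1, squares for replicate 2 and 95% exact binomial intervals (counting error only). Genes of the same symbol are labelled by the last digits of their IDs. The share of col5a3a lies at 13.3% and 10.6% in the testes and at 96.8% and 97.6% in the ovaries, while that of the col12a1 pair is alike in all 4 libraries. In the loxl3 pair the share is 84.7% and 91.2% in the testes, with intervals apart, and 88.0% and 90.5% in the ovaries.

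Libraries of the same sex often differed from each other in the matrix genes. At a pseudocount of 0.5 CPM, 32 of the 135 matrix genes were at least 2-fold higher in testis replicate 1 than in testis replicate 2, and 8 the reverse, against 1695 and 1064 of all 21815 genes. Between the ovaries, 38 were at least 2-fold higher in replicate 2 than in replicate 1, and 7 the reverse, against 1816 and 905 of all genes. Some genes that were not tested were also apart between the testes, among them col10a1 (ENSDARG00000101535) at 697 and 0 counts in the testes and 0 and 1 in the ovaries, the other col10a1 (ENSDARG00000054753) at 93 and 4 in the testes and 1 and 10 in the ovaries, and the 3 timp4 genes. The timp4 genes had 27, 19 and 11 counts in testis replicate 1, at most 1 count in testis replicate 2 and 0 in both ovaries. Type X collagen is known from growing cartilage and, in fish, from bone-forming cells, and its reads here came almost entirely from a single fish. In the other direction, adamts14 had 11 and 171 counts in the testes and 37 and 56 in the ovaries (log2 fold change 1.03 ± 1.13 SE, edgeR adjusted p = 0.448).

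**Figure D4:**
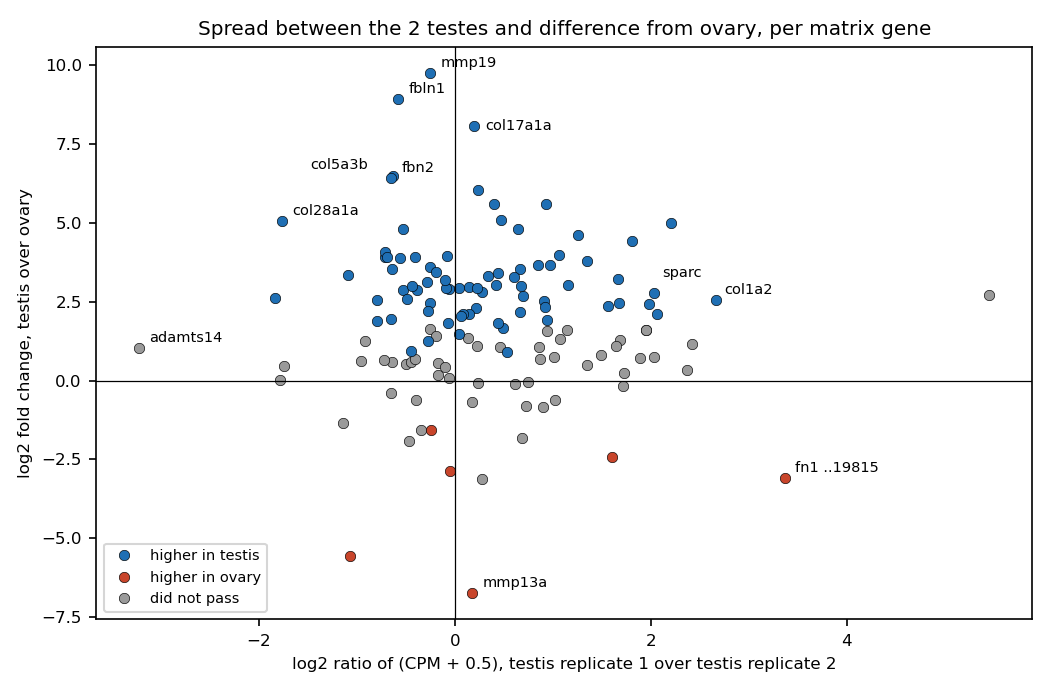
For each tested matrix gene, the horizontal axis gives the log2 ratio of testis replicate 1 over testis replicate 2 at a pseudocount of 0.5 CPM. The vertical axis is the log2 fold change of testis over ovary from edgeR, with blue, red and grey as higher in testis, higher in ovary and not passed. For lamb3 and fbln7, with 0 counts in both ovaries, the lower bounds of 5.10 and 3.97 are drawn in place of the edgeR values of 9.65 and 8.52. Of the widest gaps towards testis, mmp19, fbln1 and col17a1a lie near a ratio of 0 between the testes, while fbln7 has a log2 ratio of 1.06. The genes fn1 (ENSDARG00000019815) and col1a2 lie far to the right, being higher in testis replicate 1.

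The remaining genes without a test were scarce. These were col9a1b, col21a1, col28a1b, mmp20a, mmp20b, mmp25b and sparcl2, with at most 54 counts in any library, of which mmp25b had 54 and 0 in the testes and 3 and 5 in the ovaries. The filter on low counts removed them when all 4 libraries were used. In fits without a library some were kept and passed towards testis, namely col28a1b (log2 fold change 4.94, edgeR adjusted p = 0.00996), mmp25b (3.83, 0.0118) and col21a1 (2.39, 0.037) without testis replicate 2, and sparcl2 (2.54, 0.039) without testis replicate 1.

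Genes that work with the matrix did not all share its direction. Of the enzymes and carriers that fold, export and process collagen, 11 of 31 tested were higher in testis and 8 in ovary, close to the 36.7% and 28.5% of all genes. The genes named from these lists were chosen after their values were seen. The prolyl 4-hydroxylase beta subunit p4hb, also a general folding enzyme, had 1872 and 1438 counts in the testes, against 52801 and 22665 in the ovaries (log2 fold change -4.33 ± 0.55 SE, edgeR adjusted p = 0.00124). The export factor mia3, needed to ship bulky collagen out of the endoplasmic reticulum, was also higher in ovary (-2.80 ± 0.26, edgeR adjusted p = 0.000429). The alpha subunits of the same hydroxylase were divided, with p4ha2 higher in testis (5.27 ± 0.37, edgeR adjusted p = 0.000219), p4ha1a higher in testis (4.52 ± 0.59, edgeR adjusted p = 0.00136) and p4ha1 (ENSDARG00000071082) higher in ovary (-2.25 ± 0.23, edgeR adjusted p = 0.000566). The lysyl hydroxylase plod1 was higher in testis (3.12 ± 0.49, edgeR adjusted p = 0.00273).

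Integrins and other matrix receptors were higher in testis in 12 of 33 tested genes and higher in ovary in 6 (36.4% and 18.2%, against 36.7% and 28.5% of all genes), or in 9 and 6 of 34 without testis replicate 1. The alpha chain of the classical fibronectin receptor, itga5, was on the ovary side with fn1 (ENSDARG00000019815), at 682 and 264 counts in the testes and 3282 and 2631 in the ovaries (log2 fold change -2.51 ± 0.46 SE, edgeR adjusted p = 0.00456). The integrin itga11, a collagen receptor in mammals, was on the testis side (2.27 ± 0.48, edgeR adjusted p = 0.00765), and so was itga10 (3.68 ± 0.93, edgeR adjusted p = 0.0142). Of 2 itgb1 genes that passed, ENSDARG00000071863 was higher in testis (3.40 ± 0.33, edgeR adjusted p = 0.000518) and ENSDARG00000104484 higher in ovary (-1.25 ± 0.35, edgeR adjusted p = 0.0200).

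Small leucine-rich proteoglycans, which bind collagen fibrils, were higher in testis in 6 of 8 tested genes and in ovary in 0, but in 0 of 7 without testis replicate 1. With all 4 libraries the shares were 75% and 0%, against 36.7% and 28.5% of all genes. Decorin, dcn, had 1046 and 351 counts in the testes and 104 and 166 in the ovaries (log2 fold change 2.45 ± 0.61 SE, edgeR adjusted p = 0.0138). Other matrix glycoproteins were higher in testis in 30 of 50 tested genes and in ovary in 3, and the same counts held without testis replicate 1. Among these glycoproteins the shares with all 4 libraries were 60% and 6%, against 36.7% and 28.5% of all genes. The widest gap was in egflam (pikachurin), with 578 and 1123 counts in the testes and 5 and 8 in the ovaries (7.10 ± 0.56, edgeR adjusted p = 0.000285). Towards ovary ecm1a was the widest, with 10 and 6 counts in the testes and 348 and 560 in the ovaries (-5.73 ± 0.59, edgeR adjusted p = 0.000621). Among 23 genes that control proteases near the cell surface, 8 were higher in testis and 4 in ovary (34.8% and 17.4%, against 36.7% and 28.5% of all genes), or 6 and 2 without testis replicate 1. The plasminogen activator plau was higher in testis (3.87 ± 0.77, edgeR adjusted p = 0.00612).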

How the data were processed

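The deposited table holds raw read counts per Ensembl gene, with no normalization, for 4 libraries. Per the labels and the study's methods, the authors aligned stranded (dUTP) reads with HISAT2 2.0.5 to GRCz11, removed duplicates with SAMtools 1.5 and counted exon reads on the reverse strand with HTSeq 0.9.1. Removing duplicates can compress high counts. The labels state depletion of ribosomal RNA, while the study's methods describe poly(A) selection for adult libraries. Those methods count fewer such libraries than the study had adult samples. Whether the 4 libraries here are among them, and which method holds here, is not settled. Each library is 1 fish, so p-values set the difference between the sexes against a spread estimated from 2 fish per sex. That estimate shares information across genes. Per the study's methods each adult group was kept in 1 tank, so spread between tanks is not covered.

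A table of Ensembl IDs and names gave symbols to 29201 of 32520 IDs. The matrix genes and all gene lists were chosen with earlier results of these data known. Genes were filtered with filterByExpr, scaled by TMM and tested with edgeR 4.0.16 in R 4.3.3 (quasi-likelihood with adjusted deviances, Benjamini-Hochberg over all 21815 tested genes, adjusted p under 0.05). A log2 fold change above 0 is a higher level in testis, and its standard error is the fold change over the square root of F. A gene with 0 counts in a sex was set at 3 counts per library for a lower bound, and where every library of a sex had at most 3 counts, not all 0, the ratio has an exact counting interval. The procedure was tested on simulated data.

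Genes were named by role: of the tested genes that passed without overlap and with at least 5 CPM on average in the higher sex, the up to 2 largest fold changes in each direction, the most read gene of each role, and like-named copies. Genes named outside this rule, for their known role or as exceptions, were chosen after their values were seen, as was the pairing of IDs with the same symbol. Alternatives were DESeq2 1.42.0 (Wald test, size factors), library size alone, 2 filters, a threshold of 0.01, each library left out, a replicate block, thinning to equal depth and leaving out loxhd1. The 2 replicates of each number did not deviate together (correlation -0.03). Python 3.11.15 made tables and figures. No genome of the build was used, so no sequences, coordinates or protein features are given. Some genes are counted in their lists but not reported singly here.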

Additional observations from a re-analysis of the deposited data

How the results depend on the processing

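Of the 83 matrix genes that passed, 0 changed sign in any alternative that tested them. Between 50 (adjusted p under 0.01) and 82 (DESeq2 size factors, legacy quasi-likelihood) kept their call, and leaving out loxhd1 took away only those 2 genes. By library size alone, 3 matrix genes were higher in ovary (all genes 3833) and the matrix median was 2.74. With at least 10 counts required in every library, 2 matrix genes were higher in ovary, against 4552 of all 15277 genes then tested (29.8%). Of the 97 matrix genes then tested, 50 kept their call towards testis and a further 7 newly passed towards testis. Over all genes 4566 (29.9%) were higher in testis. Under that filter 29 of the 83 were no longer tested. At an adjusted p under 0.01, 47 of the 135 matrix genes were higher in testis and 3 in ovary. Of all 21815 genes, 5258 were higher in testis. The share of all genes towards ovary at that threshold is not reported here. Leaving out a library in turn gave 57 to 81 matrix genes higher in testis and 3 to 6 higher in ovary, 5424 to 7193 of all genes higher in testis and 5043 to 5772 in ovary, and a matrix median of 1.55 (without testis replicate 1) to 2.54 (without ovary replicate 2). The lone library was then assumed to vary like the other sex. DESeq2's Wald test gave 76 higher in testis and 9 in ovary (34.2% and 30.1% of all genes). No filter beyond 1 count gave 65 and 4 (25% and 20.7% of all genes). Thinning to the smallest total gave 78 and 8 (37.2% and 27.9% of all genes). The legacy quasi-likelihood of edgeR, added after the data were seen, gave 76 and 6 (36% and 28.3% of all genes). With a replicate block, 69 were higher in testis and 6 in ovary (all genes 7191 and 5610) with a matrix median of 1.98.

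Signs turned in genes that did not pass, among them hspg2, to 0.63 by library size alone and 0.32 with at least 10 counts in every library. Others were fn1 (ENSDARG00000006526) and col18a1a without testis replicate 1, and lamb2l without ovary replicate 2. Over the fits without a library, hspg2 ranged from -0.46 (testis replicate 1) to 0.16 (testis replicate 2; 0.15 without ovary replicate 2), fn1 (ENSDARG00000006526) from -0.52 (testis replicate 1) to 2.27 (ovary replicate 2) and col18a1a from -0.33 (testis replicate 1) to 1.14 (ovary replicate 2). The cause was not tested. Depth limits the low genes, where a library's floor of 3 counts is 0.159 to 0.202 CPM. The planned description of protein sequence features was not run.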
